A study of Mus musculus with 12 samples.

Results

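4930404N11Rik and Mfsd12 are a pair of mouse genes that lie on opposite strands of the same stretch of chromosome 10. They are 2 of the 24422 rows in each count table. 4930404N11Rik was chosen by its counts in these libraries, high on a high-fat diet and low in both telomerase knock-in groups, so its values in those comparisons are given as a description with no test. Mfsd12 was taken because it overlaps 4930404N11Rik, with earlier results of these data known. The counts of both genes can share sequenced fragments, so the values of Mfsd12 are not independent support for those of 4930404N11Rik. For the same reason the p-values of Mfsd12 below are not free of the choice of 4930404N11Rik.

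The libraries are poly-A RNA-seq of the adipose stromal vascular fraction, the mixed precursor, vascular and immune cells of fat without its mature fat cells, in 4 groups of 3. All mice carried 1 modified allele of p21 (Cdkn1a, a cell cycle inhibitor and marker of senescent cells). SD mCherry (replicates 1, 2 and 3) and HFD mCherry (15, 17 and 20) had the genotype p21+/mcherry and were fed a standard or a high-fat diet. HFD Tert (25, 26 and 27) and HFD TertCi (30, 31 and 33) were p21+/mcherry-Tert and p21+/mcherry-TertCi on the high-fat diet, with the p21 promoter driving Tert, the catalytic subunit of telomerase, or TertCi, its catalytically inactive form. In the names of the groups SD stands for standard diet, and elsewhere SD is the standard deviation. The design text calls the high-fat diet control p21+/-, whereas its sample labels give mcherry. The labels give no age, sex or depot and do not say whether the replicates were separate animals, so p-values measure only the spread between these libraries.

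MFSD12 belongs to the major facilitator superfamily of membrane transporters. It sits in the membrane of lysosomes and melanosomes, is required for the import of cysteine into them, and is known for its effect on coat and skin colour. In adipose tissue, lysosomes are abundant in macrophages that take up lipid. The protein of 4930404N11Rik is the mouse counterpart of TEKTIP1, a protein that binds the tektin bundle inside the microtubule doublets of cilia and sperm tails, and no role of it in fat is used here.

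In GENCODE M21 (GRCm38, the assembly also called mm10), Mfsd12 (ENSMUSG00000034854.8) covers chr10:81357491-81366225 on the + strand. Its full-length transcript has 10 exons with 3971 bases, of which 1431 encode 476 amino acids. The last exon, chr10:81363770-81366225, is 2456 bases long and holds a 3′ UTR of 2433 bases. 4930404N11Rik (ENSMUSG00000020234.10) covers chr10:81363067-81365816 on the - strand, with 4 transcripts. One transcript has 4 exons, and all 691 exonic bases, the 621 coding bases among them, lie within the 3′ UTR of Mfsd12. Over all transcripts, 1179 of the 1751 exonic bases of 4930404N11Rik (67.3%) are also exonic in Mfsd12, where they make up 29.7% of the exonic bases. RefSeq (GRCm38.p6) gives 4930404N11Rik a span of 1797 bases at chr10:81364024-81365820, all of it within the last exon of Mfsd12.

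**Figure D1:**
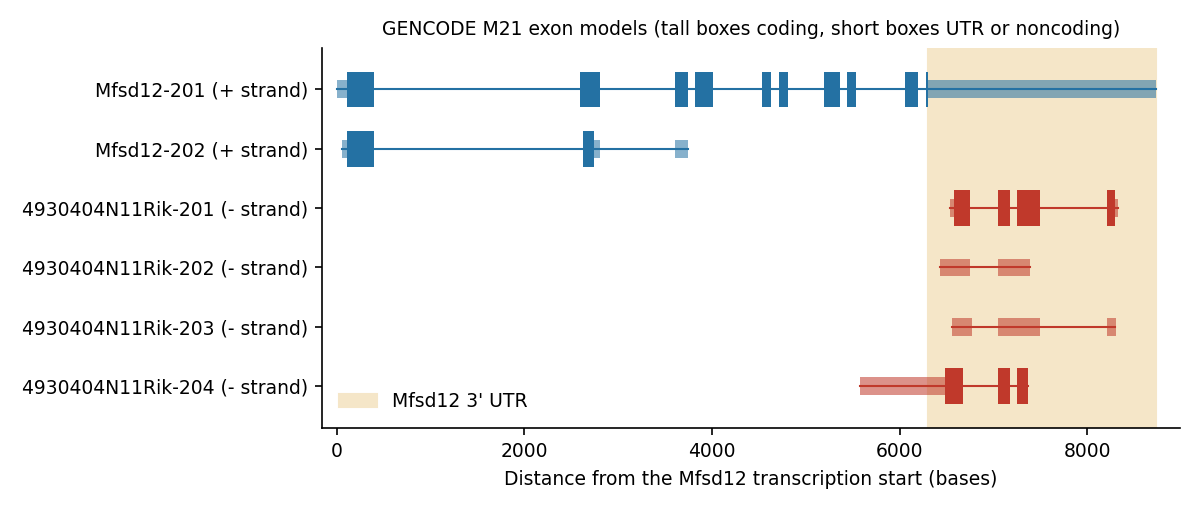
Exon models of both genes, with distance from the Mfsd12 transcription start in bases on the x axis and 1 transcript a line; tall boxes are coding, short boxes are not, and the shaded band is the Mfsd12 3′ UTR. All 4 exons of the uppermost 4930404N11Rik transcript fall inside the band, and the lowest transcript reaches beyond it.

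The overlap can be read from 30 bases at chr10:81365757-81365786, shown because they hold the start of one protein and lie in the 3′ UTR of the other. Each strand is written 5′ to 3′, and the capitals mark the start codon of 4930404N11Rik and its complement.
4930404N11Rik, first coding bases, - strand: ATGgaaaacgtgaggcgggaggctactcgg
Mfsd12, 3′ UTR, same bases, + strand: ccgagtagcctcccgcctcacgttttcCAT
Neither the library protocol nor the sources used here record a step that keeps strand, and the way the counting program treated fragments on bases shared by the genes is not given in the sources used here. Unless strand was kept, reads of the genes on these bases cannot be told apart. Whether it was kept is not known, and all values below carry this limit.

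The promoter of Mfsd12 is shown because of the pair only Mfsd12 had a promoter window. Whether it bears on the level of either gene was not tested. These are the 250 bases before the Mfsd12 start at chr10:81357241-81357490, + strand, from RefSeq (GRCm38.p6), and the capitals mark a GC box.
Mfsd12 promoter: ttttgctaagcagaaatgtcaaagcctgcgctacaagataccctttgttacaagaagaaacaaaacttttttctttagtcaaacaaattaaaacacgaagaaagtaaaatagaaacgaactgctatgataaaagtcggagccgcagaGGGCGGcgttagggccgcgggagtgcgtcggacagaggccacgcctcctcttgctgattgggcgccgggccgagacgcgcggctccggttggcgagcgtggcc
Letters of 6 motifs were searched on both strands of this window and of the same 250 bases of all 32851 promoter windows, with overlaps between motifs allowed. The Sp1 letters GGGCGG occurred 1 time, 103 bases before the start, and are in 32.7% of all windows. The E-box CACGTG, the core of the element bound by TFEB at lysosomal genes, is in 6.02% of windows and not in this one. The M-box letters TCATGTG bound by MITF (3.25% of windows), the PU.1-type letters GAGGAAG (10.6%), the AP-1 letters TGANTCA (6.75%) and TATAAA (12.4%) were not found in it either. These are matches of letters only. No promoter is shown for 4930404N11Rik.

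Between 16430330 and 19486965 counts were assigned per library, over 16231 to 19147 detected genes. As a check of the labels, the added mCherry_Tert row had 0 counts in all 6 mCherry libraries and 33 to 86 in the 6 knock-in libraries. Genes of 14 adipose stromal markers such as Dcn and Pdgfra were detected in every library, with summed levels from 4212 CPM in SD mCherry to 29558 CPM in HFD mCherry. Markers of epididymal epithelium, the duct beside a male fat depot, summed to between 56.7 and 57870 CPM over the libraries, with 240 to 16946 CPM within HFD mCherry. CPM are counts scaled to a common library size after TMM adjustment.

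Both genes were at their highest in the 3 HFD mCherry libraries and several-fold lower in the other 9. 4930404N11Rik had 655, 969 and 999 counts in HFD mCherry replicates 15, 17 and 20, or 36.2, 58.3 and 59.7 CPM. In SD mCherry it had 193, 159 and 163 counts in replicates 1, 2 and 3, or 9.83, 7.71 and 9.44 CPM. HFD Tert replicates 25, 26 and 27 held 178, 163 and 197 counts, or 10.4, 8.70 and 11.6 CPM. The 3 groups outside HFD mCherry overlapped, and no library of theirs came near the HFD mCherry libraries. HFD TertCi replicates 30, 31 and 33 held 131, 184 and 173 counts, or 6.68, 11.8 and 8.67 CPM. Group means of 4930404N11Rik were 51.4 ± 13.2 CPM in HFD mCherry, 10.2 ± 1.44 CPM in HFD Tert, 9.07 ± 2.60 CPM in HFD TertCi and 8.99 ± 1.13 CPM in SD mCherry (SD, n = 3 each). The order was thus HFD mCherry, HFD Tert, HFD TertCi and SD mCherry, and the last 3 did not differ beyond their spread.

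Mfsd12 had the same order of groups, at a lower count than 4930404N11Rik in every library. Its counts in HFD mCherry replicates 15, 17 and 20 were 280, 481 and 564, or 15.5, 28.9 and 33.7 CPM. In SD mCherry replicates 1, 2 and 3 they were 103, 77 and 48, or 5.24, 3.73 and 2.78 CPM. The HFD Tert libraries 25, 26 and 27 held 63, 62 and 109 counts of Mfsd12, or 3.68, 3.31 and 6.40 CPM. Replicate 27 was the highest of the 9 libraries outside HFD mCherry for Mfsd12. In HFD TertCi replicates 30, 31 and 33 the counts were 94, 62 and 86, or 4.79, 3.99 and 4.31 CPM. Mean levels of Mfsd12 were 26 ± 9.45 CPM in HFD mCherry, 4.46 ± 1.69 CPM in HFD Tert, 4.37 ± 0.404 CPM in HFD TertCi and 3.92 ± 1.24 CPM in SD mCherry (SD, n = 3 each), and the last 3 overlapped. Its lowest count, 48 in SD mCherry replicate 3, has a Poisson 95% interval of 35.4 to 63.6, which covers counting error only. In bulk RNA such as this, fewer cells of a type and less RNA per cell cannot be told apart.

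**Figure D2:**
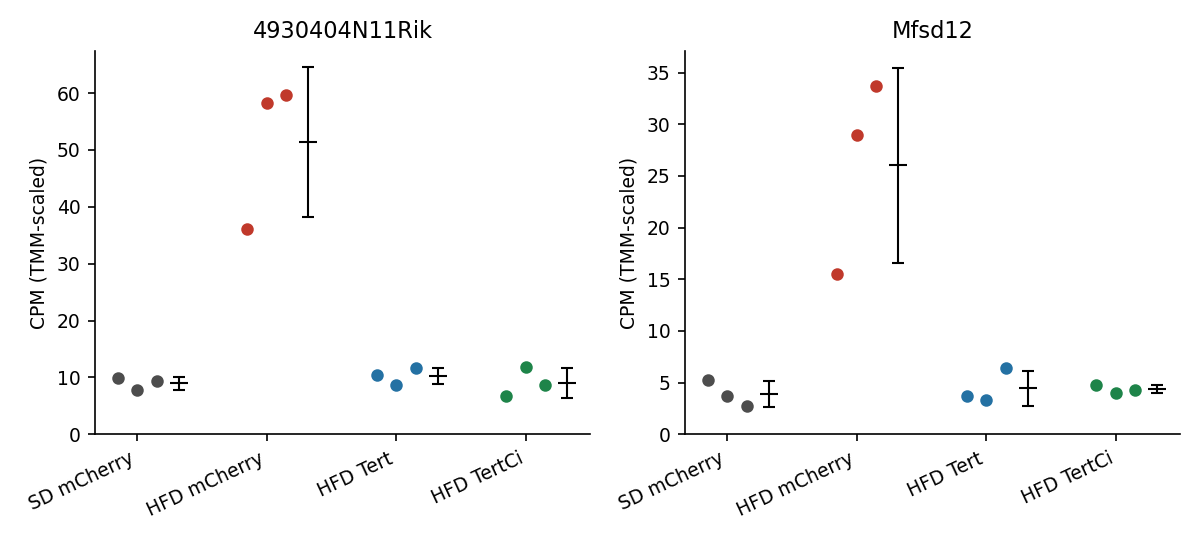
CPM of 4930404N11Rik (left) and Mfsd12 (right) in the 12 libraries, 1 point a library, with the mean and SD of each group (n = 3) beside the points. HFD mCherry runs from 36.2 to 59.7 CPM for 4930404N11Rik and from 15.5 to 33.7 CPM for Mfsd12, above all other libraries.

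Within HFD mCherry, replicate 15 was the lowest for both genes. That library also had the lowest summed level of core macrophage markers in its group (3009 CPM, against up to 7818 CPM) and the highest of epididymal epithelial markers (16946 CPM, against 240 CPM at the lowest). Even this library had 3.05 times the 4930404N11Rik level of the highest library outside the group and 2.41 times that of Mfsd12. Over the 9 libraries outside HFD mCherry, 4930404N11Rik ran from 6.68 to 11.8 CPM and Mfsd12 from 2.78 to 6.40 CPM. Of the 16713 genes tested, 488 (2.92%) had all 3 HFD mCherry libraries above the other 9, and 14 (0.0838%) had them at least 2-fold above. 10 of these 14 (0.0598% of genes tested) had a mean of at least 1 CPM. Ranked by this gap, 4930404N11Rik was 2nd and Mfsd12 4th among the 15303 genes of at least 1 CPM, with Nav3 1st (3.15-fold) and Btbd17 3rd (2.81-fold). This gap follows in part from the choice of 4930404N11Rik, and nothing is read from its rank.

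On the high-fat diet, among mice without a telomerase knock-in, the fitted log2 fold change of 4930404N11Rik was 2.51 ± 0.288 (SE), a 5.71-fold difference. That of Mfsd12 was 2.73 ± 0.401, or 6.63-fold, with an adjusted p of 0.0562 in edgeR's quasi-likelihood test with Benjamini-Hochberg adjustment, so Mfsd12 was not called. All 3 HFD mCherry libraries were above all 3 SD mCherry libraries for both genes, as they were for 13.9% of genes tested. Of all genes tested, 8 (0.0479%) were called in this comparison, 4033 (24.1%) had an unadjusted p under 0.05, and 2055 (12.3%) were called by DESeq2 and 0 (0%) by limma-voom. The call of Mfsd12 turned on the fit: over 18 alternatives its adjusted p ran from 3.27e-08 to 0.261, and it was under 0.05 in 4 of them. These were DESeq2, an epithelial covariate, and the fits without HFD mCherry replicate 15 (adjusted p = 0.00749 in edgeR) or without HFD Tert replicate 27 (0.0216). Leaving out any 1 of the 12 libraries moved the number of genes called to between 0 and 2082, the highest being without HFD mCherry replicate 15.

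The comparison of HFD Tert with HFD mCherry asks what Tert driven by the p21 promoter did on the high-fat diet. 4930404N11Rik was lower in HFD Tert by a log2 fold change of -2.33 ± 0.286 (SE), and Mfsd12 by -2.54 ± 0.398 with an edgeR adjusted p of 0.125. The HFD Tert libraries lay below the HFD mCherry libraries for both genes, as they did for 11.1% of genes tested. Of all genes tested, 0 (0%) were called by edgeR, with 2735 (16.4%) at an unadjusted p under 0.05, 847 (5.07%) called by DESeq2 and 0 by limma-voom. Over the alternatives, the adjusted p of Mfsd12 ran from 7.24e-07 to 0.573 and was under 0.05 in 3 of 18, among them the edgeR fit without HFD mCherry replicate 15 (0.0323). The number called by edgeR was 51 without that library, 8 without SD mCherry replicate 3 and 1 without HFD Tert replicate 27.

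HFD TertCi was compared with HFD mCherry to see what the same construct does without catalytic activity. The log2 fold change of 4930404N11Rik was -2.50 ± 0.288 (SE), and that of Mfsd12 was -2.57 ± 0.398 with an edgeR adjusted p of 0.138. The groups did not overlap for either gene, as for 12% of genes tested in this direction. In this comparison 2 genes (0.012%) were called by edgeR, 2452 (14.7%) had an unadjusted p under 0.05, and 684 (4.09%) were called by DESeq2 and 2 (0.012%) by limma-voom. The adjusted p of Mfsd12 ran from 1.05e-06 to 0.539 and was under 0.05 in 3 of 18 alternatives, among them the edgeR fit without HFD mCherry replicate 15 (0.0222). The number of genes called was 198 without that library, 5 without SD mCherry replicate 3, and 0 without any other single library. The 3 comparisons above share the HFD mCherry libraries, so their values for a gene are not independent of each other.

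HFD Tert and HFD TertCi differ in the catalytic activity of the product. Because 4930404N11Rik was chosen as low in both of these groups, a large difference between them was made less likely by that choice. Its test here is thus not free of the choice, nor is that of Mfsd12, whose counts can share fragments with it. The log2 fold change of HFD Tert against HFD TertCi was 0.17 ± 0.274 (SE) for 4930404N11Rik, with a 95% interval of -0.46 to 0.81, and 0.03 ± 0.380 for Mfsd12, with an interval of -0.84 to 0.91. Both had an adjusted p of 1 in edgeR's quasi-likelihood test. A difference between the knock-in groups was not detected for either gene, and differences of the size of these intervals are not shown to be absent. The sign changed without HFD TertCi replicate 30 for 4930404N11Rik (-0.00453), and without HFD Tert replicate 27 (-0.32) or HFD TertCi replicate 31 (-0.0300) for Mfsd12. By edgeR 0 genes (0%) were called here, with 227 (1.36%) at an unadjusted p under 0.05, 9 (0.0539%) called by DESeq2 and 0 by limma-voom.

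The balance between the genes is free of library scaling. 4930404N11Rik made up 58.2% (exact Clopper-Pearson 95% interval 51.5% to 64.7%) of the counts of both genes in HFD TertCi replicate 30, the lowest share, and 77.3% (71.0% to 82.7%) in SD mCherry replicate 3, the highest. In HFD mCherry replicates 15, 17 and 20 the share was 70.1%, 66.8% and 63.9%. These lie within the range of the other libraries, so the share did not set HFD mCherry apart. The ratio of 4930404N11Rik to Mfsd12 counts was 2.04 ± 0.285 in HFD mCherry, 2.42 ± 0.540 in HFD Tert, 2.12 ± 0.793 in HFD TertCi and 2.44 ± 0.829 in SD mCherry (SD, n = 3 each), and the ranges of the 4 groups overlapped.

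**Figure D3:**
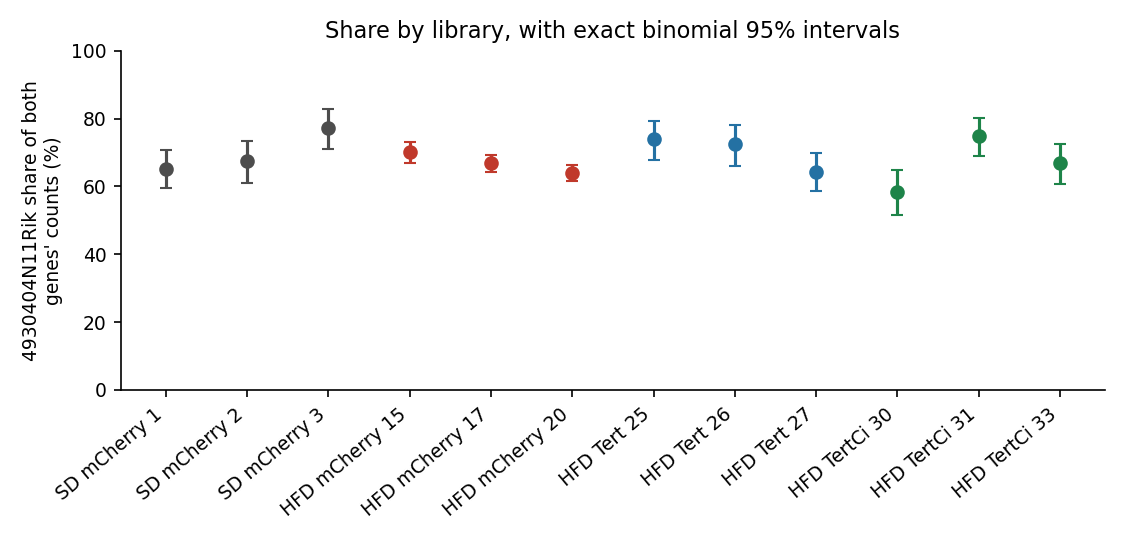
Share of 4930404N11Rik in the summed counts of both genes (y axis, percent) in each of the 12 libraries, with exact binomial 95% intervals for counting error only. The shares run from 58.2% to 77.3%, and the 3 HFD mCherry libraries lie inside that range.

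Per kilobase of exon over all transcripts, the level of 4930404N11Rik was 29.3 CPM per kilobase in HFD mCherry and 5.14 to 5.84 in the other group means. The level of Mfsd12 on this scale was 6.55 CPM per kilobase in HFD mCherry and 0.987 to 1.12 elsewhere. 4930404N11Rik was thus 4.48-fold above Mfsd12 per exonic base in HFD mCherry, and 4.71-fold to 5.20-fold in the other groups. If only the 572 and 2792 bases that the genes do not share were counted, the folds would be 9.63 in HFD mCherry and 10.1 to 11.2 elsewhere. Which bases gave counts is not recorded, so these are a range of scales and not a measured ratio of transcripts. The 572 bases come from transcripts other than the one with 4 exons, which has 0 bases that are not shared. In RefSeq the whole span lies within the last exon of Mfsd12, so the scale of unshared bases may not apply.

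Each tested gene around the pair differed less than the pair did between HFD mCherry and any other group. Of the 10 nearest annotated genes on each side, 15 were in the tables and 14 were tested. By edgeR 0 of the 14 were called on the high-fat diet, with 2 at an unadjusted p under 0.05 (24.1% of all genes tested), 2 called by DESeq2 (12.3% of all) and 0 by limma-voom. Their median log2 fold change was -0.14 beside -0.0753 over all genes tested, and it was 0.12 without SD mCherry replicate 3. Of the 14, 2 did not overlap in the higher direction, a share near the 13.9% of all genes tested. Hmg20b, a DNA-binding subunit of a histone demethylase complex, lies before Mfsd12 and had 67.5 ± 37.3 CPM in SD mCherry and 62.4 ± 2.57 CPM in HFD mCherry. Fzr1, an activator of the anaphase-promoting complex, follows the pair and had 37.2 ± 7.81 and 36.4 ± 1.61 CPM in these groups. Diet log2 fold changes were -0.11 for Hmg20b (edgeR adjusted p = 0.845), -0.0337 for Fzr1 (0.926), 0.20 for Gipc3 (0.915) and -0.68 for Dohh (0.420). The neighbour with the highest value was Pip5k1c, a lipid kinase, at 60.1 ± 15.2 CPM in SD mCherry and 114 ± 20.8 CPM in HFD mCherry, a log2 fold change of 0.93 (edgeR adjusted p = 0.0776). Its level was 61.0 ± 11.8 CPM in HFD Tert and 61.0 ± 7.5 CPM in HFD TertCi (SD, n = 3 each), with log2 fold changes of -0.91 and -0.91 against HFD mCherry (edgeR adjusted p = 0.191 and 0.195), so this 1 neighbour had the order of groups of the pair at a smaller size.

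**Figure D4:**
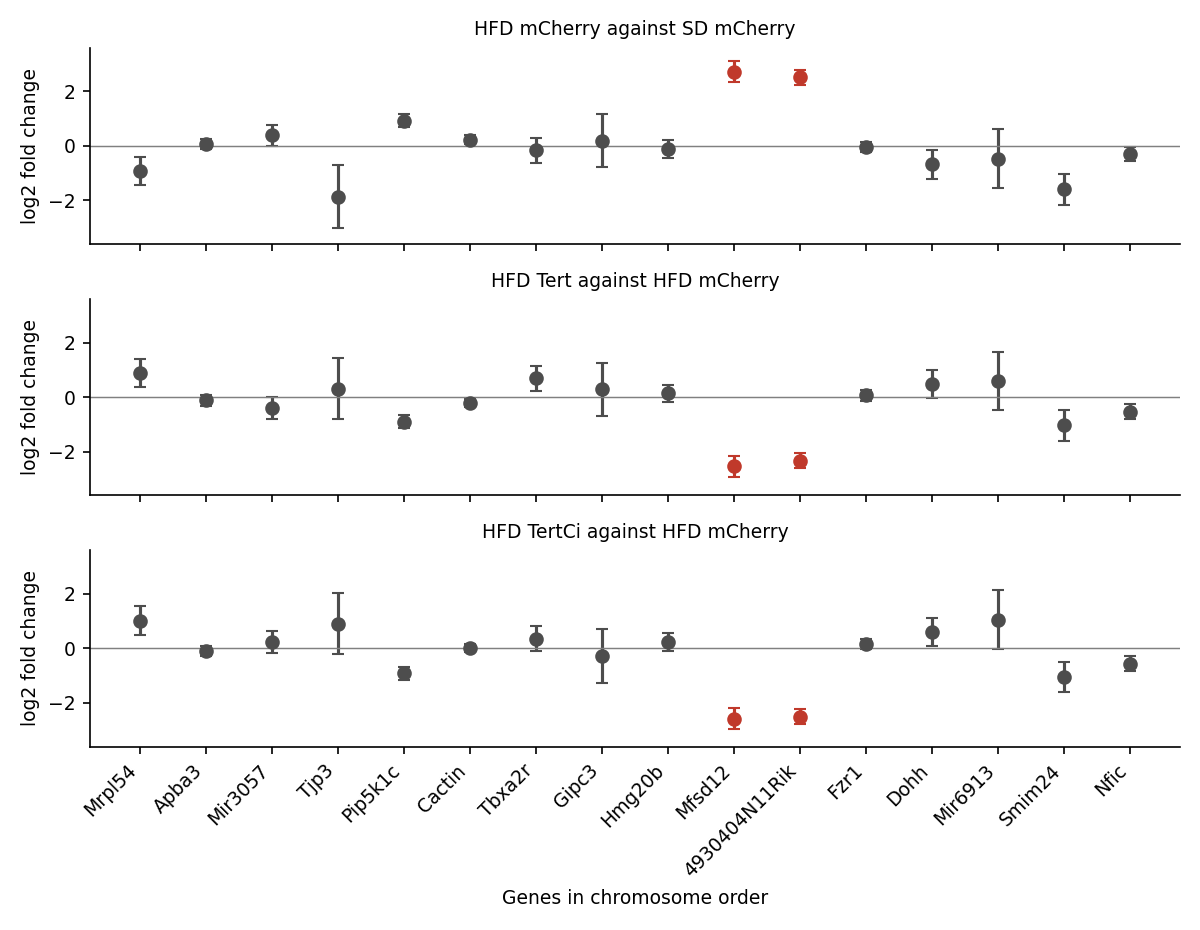
Log2 fold change with its SE (edgeR) for the pair, in red, and the 14 tested neighbours in chromosome order, for 3 comparisons. The pair stands at 2.51 and 2.73 on the high-fat diet, whereas the neighbours run from -1.86 (Tjp3) to 0.93 (Pip5k1c).

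Mfsd12 acts in lysosomes, and lysosomal genes were described from a list of 31 (hydrolases, membrane proteins, proton pump subunits and their regulators). All 31 had a log2 fold change above 0 on the high-fat diet, with a median of 0.94 and a range of 0.13 to 4.14, and 18 of 31 did not overlap in that direction (13.9% of all genes tested). By edgeR 0 of the 31 were called, with 20 at an unadjusted p under 0.05 (24.1% of all), 13 called by DESeq2 (12.3% of all) and 0 by limma-voom. Ctsb, a cysteine protease, had 713 ± 86.3 CPM in SD mCherry and 3346 ± 1597 CPM in HFD mCherry (log2 fold change 2.23, edgeR adjusted p = 0.0659). Ctsd, an aspartic protease, had 694 ± 209 and 2103 ± 903 CPM (adjusted p = 0.0679), and Psap, the precursor of sphingolipid activators, had 1482 ± 369 and 4388 ± 2002 CPM (1.57, 0.0761). Lamp1, a main lysosomal membrane protein, differed less, at 639 ± 93.7 and 911 ± 112 CPM (0.51, 0.204). The list's medians were -0.82 in HFD Tert and -0.81 in HFD TertCi against HFD mCherry, beside -0.0534 and -0.0389 over all genes tested, with 30 of 31 below 0 and 13 of 31 not overlapping in each (11.1% and 12% of all). By edgeR 0 were called in either, with 18 and 16 at an unadjusted p under 0.05 (16.4% and 14.7% of all), and 10 and 9 called by DESeq2 (5.07% and 4.09% of all) and 0 by limma-voom. The diet value of Mfsd12, 2.73, lies within the list's range.

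Genes of cystine and glutathione handling did not follow Mfsd12 as a list. Of 23 tested without Mfsd12, 9 were above 0 and 14 below on the high-fat diet, with a median of -0.21 (-0.0696 without SD mCherry replicate 2, -0.39 without HFD mCherry replicate 15). By edgeR 0 were called, with 9 at an unadjusted p under 0.05, 5 higher and 4 lower (14.1% and 10% of all genes tested). DESeq2 called 3 and limma-voom 0, and the share called by DESeq2 is near the 12.3% of all genes. Slc3a2, the heavy chain of the cystine-glutamate exchanger and other amino acid transporters, had 297 ± 34.1 CPM in SD mCherry and 561 ± 40.1 CPM in HFD mCherry (log2 fold change 0.91, edgeR adjusted p = 0.0659). Gpx1, a glutathione peroxidase, had 866 ± 272 and 746 ± 265 CPM (-0.21, 0.706). Slc1a5, a neutral amino acid transporter, had a log2 fold change of 0.45 (0.516) and Txnrd1, a thioredoxin reductase, 0.87 (0.175). In the knock-in comparisons the list's medians were -0.27 in HFD Tert and -0.0348 in HFD TertCi, and without HFD mCherry replicate 15 they were -0.0267 and 0.18. By edgeR 0 were called in either, with 5 and 3 at an unadjusted p under 0.05 (16.4% and 14.7% of all), 2 and 2 called by DESeq2 (5.07% and 4.09%) and 0 by limma-voom.

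The other transporters named MFSD in the same superfamily had a diet median of 0.0738 over 20 genes, and the sign of this median turned to -0.11 when only library size was scaled. With 1 library left out it was between 0.0597 and 0.26, the highest without SD mCherry replicate 2. Their log2 fold changes ran from -2.83 to 1.18, so the value of 2.73 for Mfsd12 lay above each of them. By edgeR 0 of 20 were called, with 6 at an unadjusted p under 0.05, a share near the 24.1% of all genes tested, 1 called by DESeq2 (12.3% of all) and 0 by limma-voom. The highest expressed, Mfsd1, a lysosomal transporter, had 54.7 ± 13.6 CPM in SD mCherry and 109 ± 36.1 CPM in HFD mCherry (log2 fold change 0.99, edgeR adjusted p = 0.122). The values of Mfsd7b (0.63), Hiat1 (0.40, now Mfsd14a) and Hiatl1 (0.39, now Mfsd14b) were smaller.

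Mfsd12 is known from pigment cells, and the 17 genes of the pigment list differed widely in level. The melanin enzymes had few or no counts, with 0 for Tyrp1 in all 12 libraries, 0 to 1 for Tyr and 0 to 5 for Dct. Other genes of the list were counted in every library, among them Pmel, which forms melanosome fibrils (69 to 221 counts), Slc24a5, a cation exchanger (285 to 745), Mitf, the pigment cell regulator that other cell types also express (192 to 1131), and Sox10, a neural crest factor (8 to 97). Of 17 pigment genes 9 were tested, and edgeR called 0 of them on the high-fat diet, with 4 at an unadjusted p under 0.05 (24.1% of all), 3 called by DESeq2 (12.3% of all) and 0 by limma-voom. Their summed level was 426 to 1836 CPM in HFD mCherry and 133 to 236 CPM in SD mCherry. Most of that difference was in Gpnmb, a glycoprotein of melanosomes that lipid-laden macrophages also express, at 58.5 ± 62.6 CPM in SD mCherry and 1143 ± 741 CPM in HFD mCherry (log2 fold change 4.29, edgeR adjusted p = 0.116).

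The protein of 4930404N11Rik has its known place in the tektin bundle of cilia and sperm tails. Most genes of the tektin and sperm axoneme list had lower values on the high-fat diet, where 4930404N11Rik was higher, but the libraries overlapped. The list's summed level was 158 to 820 CPM in SD mCherry and 68.3 to 261 CPM in HFD mCherry. Of 33 listed, 29 were in the tables and 24 tested, with 20 below 0 on the high-fat diet and a median log2 fold change of -2.06. Without HFD mCherry replicate 15 this median was -3.39, and without SD mCherry replicate 2 it was -1.35. By edgeR 0 were called, with 8 at an unadjusted p under 0.05, all lower (10% of all genes tested), 5 called by DESeq2 (12.3% of all) and 0 by limma-voom. Foxj1, the regulator of motile cilia, had 156 ± 128 CPM in SD mCherry and 15.1 ± 14.8 CPM in HFD mCherry (log2 fold change -3.36, edgeR adjusted p = 0.128), where 4930404N11Rik had 8.99 and 51.4 CPM. Nme7, a doublet protein, had 61.5 ± 44.0 and 13.8 ± 12.6 CPM (-2.16, 0.116). Against HFD mCherry the list's medians were below 0 as well, at -1.73 in HFD Tert (20 of 24 below 0) and -0.61 in HFD TertCi (18 of 24 below 0), the direction of 4930404N11Rik in these comparisons. Without HFD mCherry replicate 15 they were -0.11 and 0.70.

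The mean summed level of core macrophage markers was also highest in HFD mCherry, but unlike the pair this group overlapped with HFD Tert. All 18 core macrophage genes were above 0 on the high-fat diet, with a median log2 fold change of 2.19, and 15 of 18 did not overlap in that direction (13.9% of all genes tested). By edgeR 0 of 18 were called, with 15 at an unadjusted p under 0.05 (24.1% of all), 15 called by DESeq2 (12.3% of all) and 0 by limma-voom. The summed level of the list was 3009 to 7818 CPM in HFD mCherry, 1108 to 3413 CPM in HFD Tert, 1503 to 2473 CPM in HFD TertCi and 1326 to 1536 CPM in SD mCherry, and no gene of it was at 0 counts in any library. Lyz2, lysozyme of myeloid cells, had 292 ± 64.6 CPM in SD mCherry and 1399 ± 588 CPM in HFD mCherry (log2 fold change 2.26, edgeR adjusted p = 0.0843). In HFD Tert and HFD TertCi against HFD mCherry the medians were -1.75 and -1.75. Of the 18 genes, 7 and 15 did not overlap in the lower direction (11.1% and 12% of all). By edgeR 0 were called in either, with 14 and 15 at an unadjusted p under 0.05 (16.4% and 14.7% of all). DESeq2 called 10 and 8 (5.07% and 4.09% of all) and limma-voom 0.

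The medians of other marker lists on the high-fat diet were 2.73 for 18 genes of lipid-associated macrophages, 1.35 for 14 adipose stromal genes, 0.89 for 10 endothelial genes, -0.58 for 13 adipocyte genes and -1.78 for 12 genes of epididymal epithelium. The epithelial median was 0.38 with an epithelial covariate and -4.68 without HFD mCherry replicate 15. The adipocyte median was -0.26 without SD mCherry replicate 1, -0.91 without SD mCherry replicate 3 and -0.95 without HFD mCherry replicate 17. In the order of the lists above, 14, 12, 5, 6 and 1 genes had an unadjusted p under 0.05 on the high-fat diet (24.1% of all genes tested). DESeq2 called 13, 8, 3, 4 and 0 of them (12.3% of all), and limma-voom 0. Of these lists edgeR called 1 gene on the high-fat diet (0.0479% of all), Cfd, an adipocyte-secreted protease. Its level was 15 ± 4.61 CPM in SD mCherry and 0.409 ± 0.0190 CPM in HFD mCherry (log2 fold change -5.18, edgeR adjusted p = 0.0219). Pdgfra, a receptor of adipose precursors, was called lower in HFD TertCi, where edgeR called 0.012% of all genes tested. It had 61.6 ± 4.24 CPM there against 220 ± 19.6 CPM in HFD mCherry (log2 fold change -1.84, edgeR adjusted p = 0.0426). The part of macrophages or of any other cell type in the levels of 4930404N11Rik and Mfsd12 was not tested.

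A pair of libraries, chosen after their values were seen, had like levels of the core macrophage and lysosomal lists and unlike levels of others. HFD mCherry replicate 15 and HFD Tert replicate 27 had a mean log2 CPM of 6.33 and 6.34 over the core macrophage genes and of 7.26 and 7.29 over the lysosomal genes. On the same scale they had 7.80 and 8.24 over the lipid-associated macrophage genes, 8.17 and 8.66 over the stromal, 6.91 and 8.61 over the endothelial and 9.51 and -0.77 over the epididymal epithelial genes. 4930404N11Rik stood at 36.2 CPM in the former and 11.6 CPM in the latter, and Mfsd12 at 15.5 and 6.40 CPM. The difference in 4930404N11Rik follows from its choice as a gene high in HFD mCherry and low in HFD Tert. Over all 12 libraries the log2 level of 4930404N11Rik had a Pearson correlation of 0.887 with the mean of the core macrophage genes, and Mfsd12 of 0.918. Over the 9 libraries outside HFD mCherry these were 0.496 and 0.711. With the lysosomal genes they were 0.903 and 0.913 over 12 libraries and 0.585 and 0.577 over 9. These are descriptions across points that share library and depth, and the values over 12 libraries rest largely on the separation of HFD mCherry. The lysosomal list also shares genes with both macrophage lists, so likeness to them is not a separate observation.

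**Figure D5:**
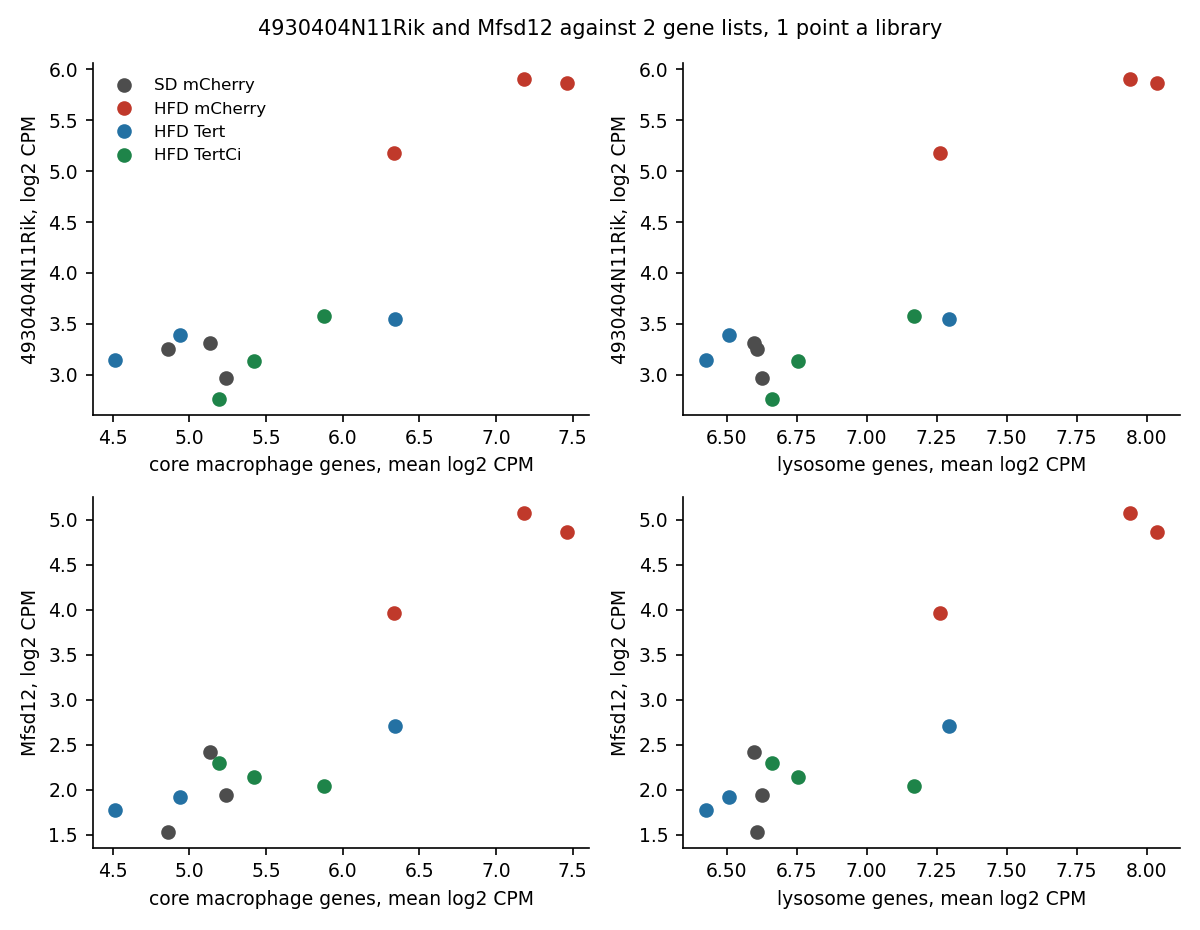
Log2 CPM of 4930404N11Rik (top) and Mfsd12 (bottom) against the mean log2 CPM of core macrophage genes (left) and lysosomal genes (right), 1 point a library, coloured by group. HFD mCherry replicate 15 (6.33 on the core macrophage axis) and HFD Tert replicate 27 (6.34) share a position on the x axis and differ on the y axis. This pair of single libraries was chosen after the values were seen, and the cause of the difference was not tested.

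The genes whose log2 CPM over the 12 libraries was most like that of each member were ranked by Pearson correlation among 15302 others of at least 1 CPM. For 4930404N11Rik the first was Sh3gl1, an endophilin of membrane traffic (0.959), then M6pr, the receptor that sorts enzymes to lysosomes (0.958), and Mfsd12 itself 3rd (0.956). Slc7a8, a neutral amino acid exchanger (0.951), Txndc5, a disulfide isomerase, Pld3, a lysosomal nuclease, Mir7062 and Pla2g15, the lysosomal phospholipase (0.942), followed. For Mfsd12 the first 8 were Sh3gl1 (0.985), Mir7062 (0.969), Hk2, a hexokinase (0.964), Adpgk, an ADP-dependent glucokinase (0.959), Txndc5, Pla2g15, Mfap2, a microfibril protein, and 4930404N11Rik at the 8th place (0.956). Mir7062 lies within Adam8, so its reads and those of its host cannot be told apart. Ranking over the same 12 libraries favours genes high in HFD mCherry, so the diet p-values of these genes are not independent of their choice and support nothing. Mfsd12 was not called, as given above, and no test of 4930404N11Rik is given. Of the other genes named for likeness, edgeR called only Slc7a8 on the high-fat diet, where 0.0479% of all genes tested were called. Its level was 25.7 ± 3.25 CPM in SD mCherry and 97.9 ± 9.57 CPM in HFD mCherry (log2 fold change 1.93, edgeR adjusted p = 0.0446). Sh3gl1 had 58.6 ± 3.71 and 104 ± 12.1 CPM (0.82, 0.0659), and M6pr 145 ± 14.0 and 220 ± 23.8 CPM (0.60, 0.0848).

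The likeness of 4930404N11Rik and Mfsd12 to each other rested on the HFD mCherry libraries. The Pearson correlation of 4930404N11Rik and Mfsd12 was 0.956 over 12 libraries and 0.172 over the 9 outside HFD mCherry, and the Spearman correlation over 12 was 0.629. By Spearman's measure Mfsd12 was 1467th among the genes most like 4930404N11Rik, and by the 9 libraries 5534th. Of the 8 genes named for each member, 0 were among the first 8 by either alternative. Over the 9 libraries, the correlations of the 8 genes named for 4930404N11Rik with it ran from 0.141 to 0.552. Those of the 8 named for Mfsd12 ran from 0.172, for 4930404N11Rik, to 0.826, for Hk2. Part of the likeness to Mfsd12 was thus also seen outside HFD mCherry.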

How the data were processed

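RNA-seq of 12 libraries was used, and the sample labels gave the 4 groups of 3. For every library the authors deposited whole-number counts of reads for 24422 gene symbols, per the file headers. The submitters' processing notes name Subread, featureCounts 1.6.4, SAMtools and mm10, and the annotation, the strand setting and the treatment of reads on overlapping genes are not given in the sources used here. Per the labels' protocols, mRNA was enriched on poly-T beads and primed with random hexamers.

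The counts were used as deposited. edgeR 4.0.16 (R 4.3.3) kept 16713 genes by filterByExpr, scaled libraries by TMM (factors 0.854 to 1.15) and fitted 1 robust quasi-likelihood model to all 12 libraries, with 8 residual degrees of freedom and a common biological coefficient of variation of 0.536. Tests were 2-sided, with Benjamini-Hochberg adjustment over all genes tested within each of 4 comparisons and a threshold of 0.05. "Not overlapping" means that every library of one group lies above every library of the other in CPM. Log2 CPM used a prior count of 2. The pipeline was also run on simulated counts, and no result of that run is given or used here. Alternatives were DESeq2 1.42.0, limma-voom (limma 3.58.1), library size alone, no filter on low counts, the 2 groups compared alone, an epithelial covariate, and leaving out each of the 12 libraries in turn.

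Gene models came from GENCODE M21 and RefSeq. Of the 24422 symbols, 23376 matched GENCODE M21 and 24313 matched RefSeq symbols or synonyms. Both members and all 12 gene lists were chosen with earlier results of these data known. The genes named were the 2 members, the 4 highest expressed tested genes of a list, from which examples are given, list genes called in any comparison, the nearest 2 neighbours on each side, and the 8 genes most like each member. Tyrp1, Tyr, Dct, Pmel, Mitf, Sox10, Tjp3, Pip5k1c, Adam8, Nav3 and Btbd17 were named outside it, once their values were known.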

Additional observations from a re-analysis of the deposited data

How the results depend on the processing

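The direction of the 3 differences from or to HFD mCherry did not change for 4930404N11Rik or Mfsd12 under any of the 18 alternatives. For 4930404N11Rik, log2 fold changes with 1 library left out ran from 2.39 to 2.71 on the high-fat diet, -2.53 to -2.21 in HFD Tert, and -2.74 to -2.32 in HFD TertCi. For Mfsd12 they ran from 2.50 to 3.0, from -2.89 to -2.31 and from -2.84 to -2.34. Mfsd12 passed the threshold with an epithelial covariate (2.50, -2.56 and -2.41 in the 3 comparisons) and with DESeq2 (2.71, -2.53 and -2.56), and the cause was not tested.

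The difference between HFD Tert and HFD TertCi turned negative for Mfsd12 with library size alone (-0.00294), the epithelial covariate (-0.15) and limma-voom (-0.0409). With 1 library left out it ran from -0.32 to 0.20, with -0.0300 without HFD TertCi replicate 31, and for 4930404N11Rik from -0.00453 to 0.41.

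Counts of genes called depended on the fit. On the high-fat diet, 8 became 1322 with the epithelial covariate, 2055 with DESeq2, 0 with limma-voom, 0 with only the 2 groups compared and 0 to 2082 with 1 library left out. In HFD Tert, 0 became 799, 847 and 0 to 51 with the covariate, DESeq2 and 1 library left out. In HFD TertCi, 2 became 426, 684, 1 with library size alone, 0 with only the 2 groups compared and 0 to 198 with 1 library left out. Between the knock-in groups, DESeq2 called 9 and edgeR 0. The cause was not tested. No paired analysis was possible because no replicate number occurs in more than 1 group. Of the other values, for medians of lists and the correlation of the pair, 853 stayed within the allowed spread and 13 moved beyond it. For a list median that spread was the pooled SD of the list's mean log2 CPM in the 2 groups compared, whether or not the sign changed. Signs of medians changed in up to 5 of 18 alternatives, as for the core macrophage genes between HFD Tert and HFD TertCi. Depth limits Mfsd12 most, at 48 to 109 counts outside HFD mCherry.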
